A study of Rattus norvegicus with 10 samples.

Results

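Liver gene expression of rats on a coconut fat diet was compared with that of rats on standard chow. The comparison uses the 2 arrays titled for each of these diets, 4 of the 10 arrays in the series, and every probe set that is not a control: 31042 probe sets, of which 18625 were bright enough to be tested. A probe set is a group of short oligonucleotides that together measure 1 transcript. The series held 5 diets with 2 Affymetrix rat arrays each, and by its title it asked about effects that depend on the kind of fat. The animals were male Wistar rats, an outbred laboratory strain, so they are not genetically alike. They ate their diet for 12 weeks and were fasted overnight before a piece of 1 liver lobe was frozen. In the coconut fat group 42% of the energy came from fat, as it did in the groups fed lard, olive oil and cod liver oil (called fish oil in what follows). The fat share of the chow is not given in the sources used here, so the kind of fat and the amount of fat cannot be told apart against chow. Neither genotype, age nor pooling of animals is given, and where nothing says that the 2 samples of a diet came from separate animals, p-values measure only the spread between these samples.

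Coconut fat is rich in saturated fatty acids of medium chain length, mainly lauric acid. Medium-chain fatty acids shorter than lauric acid reach the liver largely through the portal vein. They can enter mitochondria without the carnitine shuttle that long chains need. There they are activated by enzymes of the Acsm family and shortened by the medium-chain acyl-CoA dehydrogenase Acadm. A fasted liver burns fatty acids, exports ketone bodies and makes glucose from amino acids, while the synthesis of fatty acids is driven mainly by the transcription factors Srebf1 (SREBP-1) and Mlxipl (ChREBP) and that of cholesterol by SREBP-2.

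The signals are those of the MAS5 algorithm, on a linear scale on which the trimmed mean of each array is 100. The median signal was 29.1 on both chow arrays and 29.0 and 29.2 on the coconut fat arrays, and those of the other 6 arrays lay between 28.7 and 36.8. Over the tested probe sets, correlations of log2 signals were 0.9495 between the chow arrays and 0.9476 between the coconut fat arrays. For the pairings of a chow with a coconut fat array they were 0.9440 to 0.9481. The chow pair was thus slightly above these pairings and the coconut fat pair within their range, so the arrays did not clearly group by diet. The liver label was borne out by hepatocyte markers: 9 of 10 listed markers were tested, albumin (Alb) had signals of 10257.1 and 9794.2 on chow and 12180.3 and 11995.7 on coconut fat, and the summed signal of the list ranged from 61648.1 to 62880.8 on chow and from 65966.8 to 69475.2 on coconut fat.

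No probe set passed the test between coconut fat and chow. Fold changes below are differences of mean log2(signal + 3.1), coconut fat minus chow, with their standard errors (SE) from 1 limma fit of all 10 arrays. The p-values are adjusted by the Benjamini-Hochberg method over the 18625 probe sets and called below 0.05. Of these probe sets 0 were called (0%), and the smallest adjusted p was 0.141. An unadjusted p under 0.05 was reached by 1012 probe sets (5.43%), 473 of them higher and 539 lower on coconut fat, and 5% is the share such a threshold passes where nothing differs. The median SE of a log2 fold change was 0.30, a difference above 2-fold was measured for 329 probe sets upward and 356 downward, and the median absolute log2 fold change was 0.21. A fit of only the chow and coconut fat arrays called 5 probe sets, with Cd14, Cyp3a9 and Ugt2b among them, and leaving out 1 of the 10 arrays in turn gave 0 to 3 calls. Cd14 and Cyp3a9 were the genes called without olive oil array 1 or 2, and Pyroxd2 was among the 3 called without chow array 1. The genes that follow are therefore those with the smallest p among probe sets with a single gene symbol, 10 in each direction, given as measured values that did not pass.

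**Figure D1:**
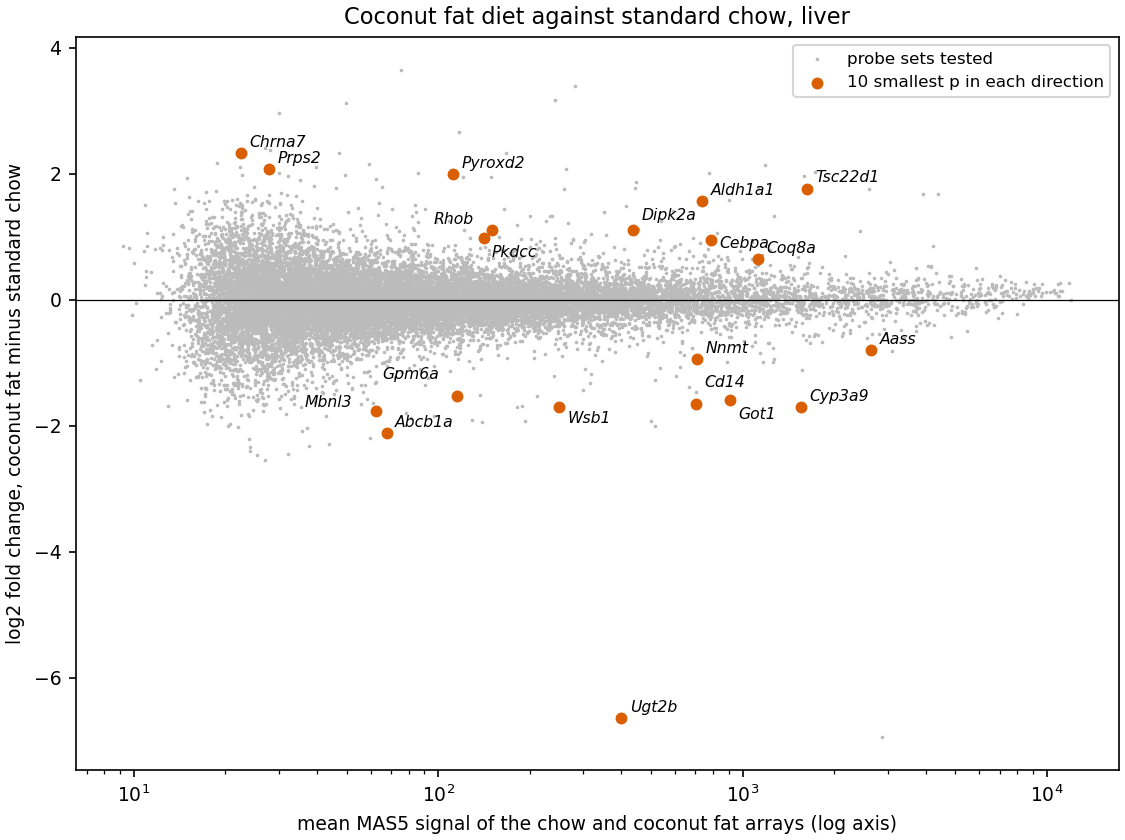
Log2 fold change (coconut fat minus standard chow, 2 arrays each) against the mean signal of the 4 arrays on a log axis, 1 grey point per tested probe set. Orange points mark the 10 named genes with the smallest p in each direction; most probe sets lie near 0, and 2 points near the bottom, 1 of them named, are the probe sets of Ugt2b at -6.64 and -6.94.

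The 3 genes with the smallest p on the upper side were Tsc22d1, Pyroxd2 and Aldh1a1. Tsc22d1, a leucine zipper regulator of transcription first described as induced by TGF-beta, had signals of 613.4 and 866.8 on chow and 2913.7 and 2113.9 on coconut fat. Both coconut fat arrays lay above both chow arrays, by 3.39-fold (log2 fold change 1.76, SE 0.25, adjusted p 0.141). A dimmer probe set of Tsc22d1, with signals of 59.9 to 90.8 on these arrays, differed by 0.15. Pyroxd2, a mitochondrial oxidoreductase-like protein, had 60.6 and 29.3 on chow and 205.6 and 152.7 on coconut fat, a log2 fold change of 1.99 (SE 0.31, adjusted p 0.168), and its other probe set gave 1.57. Aldh1a1, which oxidises retinal to retinoic acid, had 290.5 and 454.9 against 920.5 and 1278.5, a log2 fold change of 1.57 (SE 0.28, adjusted p 0.313). In all 3 genes the groups did not overlap.

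Cebpa, a transcription factor of differentiated hepatocytes, had 556.1 and 501.1 on chow and 831.7 and 1257.8 on coconut fat (log2 fold change 0.95, SE 0.21, adjusted p 0.534). All 5 tested probe sets of Cebpa were on the upper side, with log2 fold changes between 0.57 and 0.97. Coq8a, an atypical kinase needed for coenzyme Q synthesis, had close pairs of values, 878.2 and 866.3 against 1292.8 and 1444.3 (log2 fold change 0.65, SE 0.14, adjusted p 0.542). Rhob, a small GTPase, had 93.4 and 93 against 166.7 and 248.8, and Pkdcc, a secretory pathway tyrosine kinase, had 107 and 82.4 against 191.3 and 183. Their log2 fold changes were 1.10 and 0.97. Dipk2a had 292.6 and 254.7 against 489.7 and 707.3 (1.10).

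Chrna7 was at background on chow. Background is taken here as a signal of 12.8, the highest of the control probe sets for the bacterial trp genes, and a gene whose 2 arrays both lie at or below it is given as a bound. Chrna7, the alpha 7 subunit of the nicotinic acetylcholine receptor, had 4.4 and 6.2 on chow and 32.2 and 46.9 on coconut fat, at least 3.04-fold higher (adjusted p 0.418). Prps2, an enzyme that makes phosphoribosyl pyrophosphate for nucleotides, was also at background on chow on its leading probe set. That probe set had 9.2 and 6.7 against 26.2 and 69.5, at least 3.33-fold higher (adjusted p 0.513). The other probe sets of Prps2 were above background on chow, with 40.6 and 30.5 and with 39.1 and 26.3, and had log2 fold changes of 0.62 and -0.16, so the probe sets of this gene disagreed.

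Among the genes on the lower side were enzymes of amino acid breakdown, the endotoxin co-receptor Cd14 and genes that handle foreign compounds. Got1, the cytosolic aspartate aminotransferase of the malate-aspartate shuttle, had 1429.3 and 1287.7 on chow and 572.3 and 350 on coconut fat, 3.02-fold lower (log2 fold change -1.59, SE 0.23, adjusted p 0.141). Aass, which starts the breakdown of lysine, had 3361 and 3356.1 against 1884.2 and 1984.2, a log2 fold change of -0.80 (SE 0.15, adjusted p 0.314). The 2 arrays of each diet were close to each other for Aass. Nnmt, which methylates nicotinamide, had 864.1 and 1003.6 against 498.2 and 468.8 (log2 fold change -0.94, SE 0.20, adjusted p 0.456).

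Wsb1, a SOCS box protein that serves as substrate adaptor of a ubiquitin ligase, had 311.2 and 458.7 on chow and 127.5 and 102.8 on coconut fat (log2 fold change -1.70, SE 0.25, adjusted p 0.141). Mbnl3, an RNA-binding regulator of splicing, had 92 and 104.3 against 25.5 and 27.6 (-1.77, SE 0.33, adjusted p 0.314). Gpm6a, a membrane glycoprotein, had 111.8 and 238.4 against 63.1 and 47.3 (-1.53, SE 0.32, adjusted p 0.456). For each of them both coconut fat arrays lay below both chow arrays.

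Cyp3a9 and Abcb1a act on foreign compounds and steroids. Cyp3a9, a cytochrome P450, had 2454.3 and 2309.2 on chow and 656.8 and 812.5 on coconut fat, 3.25-fold lower (log2 fold change -1.70, SE 0.26, adjusted p 0.168). Abcb1a, a P-glycoprotein that pumps drugs out of cells, had 142.8 and 82.9 against 20.3 and 25.2 (-2.12, SE 0.44, adjusted p 0.456), and -1.66 was measured on its other tested probe set. In both genes the signals of the 2 diets were well apart, with the chow arrays the higher ones.

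Cd14, which presents bacterial lipopolysaccharide to the Toll-like receptor complex, had 1100.3 and 1044.6 on chow and 356.1 and 320.6 on coconut fat, 3.15-fold lower (log2 fold change -1.66, SE 0.24, adjusted p 0.141). Liver Cd14 is made by macrophages and by hepatocytes. In whole tissue, fewer cells of a type and less RNA per cell cannot be told apart. Markers of Kupffer cells and other macrophages were measured beside it: 11 of 13 listed were tested, 5 were above and 6 below 0, and the summed signal was 4631.5 and 4920.0 on chow and 4359.2 and 4126.2 on coconut fat. Both coconut fat arrays were below both chow arrays in 4 of the 11 and above in 0, beside 19.2% and 17.4% of all genes tested. The median log2 fold change was -0.028, but -0.27 without chow array 1 and 0.058 without coconut fat array 2. Cd5l, a macrophage-secreted apoptosis inhibitor, had the largest difference among them (709 and 845.4 against 452.2 and 533.2, log2 fold change -0.65, SE 0.17, adjusted p 0.669), followed by the Kupffer cell lectin Clec4f (972.6 and 1013.6 against 786.9 and 697.4, -0.42, SE 0.21). The part of these cells in the Cd14 value was not tested.

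By log2 fold change the largest difference was that of Ugt2b, annotated as a UDP-glucuronosyltransferase of the family that conjugates steroids. The dimmer of its 2 probe sets had signals of 975.1 and 613.9 on chow but 3.7 and 5.8 on coconut fat, which is background, at least 60.4-fold lower (adjusted p 0.194). The brighter one had 6093 and 5308.7 on chow and 27.2 and 68 on coconut fat, 123-fold lower (log2 fold change -6.94, SE 1.84, adjusted p 0.692). Within the fish oil group 1 array was low and 1 was high on both probe sets, with 13.1 and 471.9 on the dimmer and 13.1 and 5644.6 on the brighter. Both lard arrays (4.9 and 7.2) and both olive oil arrays (12.8 and 7.4) were at background on the dimmer one. The spread within fish oil enters the SE of every diet, since 1 variance is fitted over all 5. Without fish oil array 1 or without fish oil array 2 both Ugt2b probe sets were called, and they are the only probe sets called in those fits. Wistar stocks are known to hold rats with an inherited deletion in a glucuronosyltransferase gene for androsterone. The labels give no genotype, genes of this family are alike in sequence so that 1 probe set may read several, and the part of genotype was not tested.

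**Figure D2:**
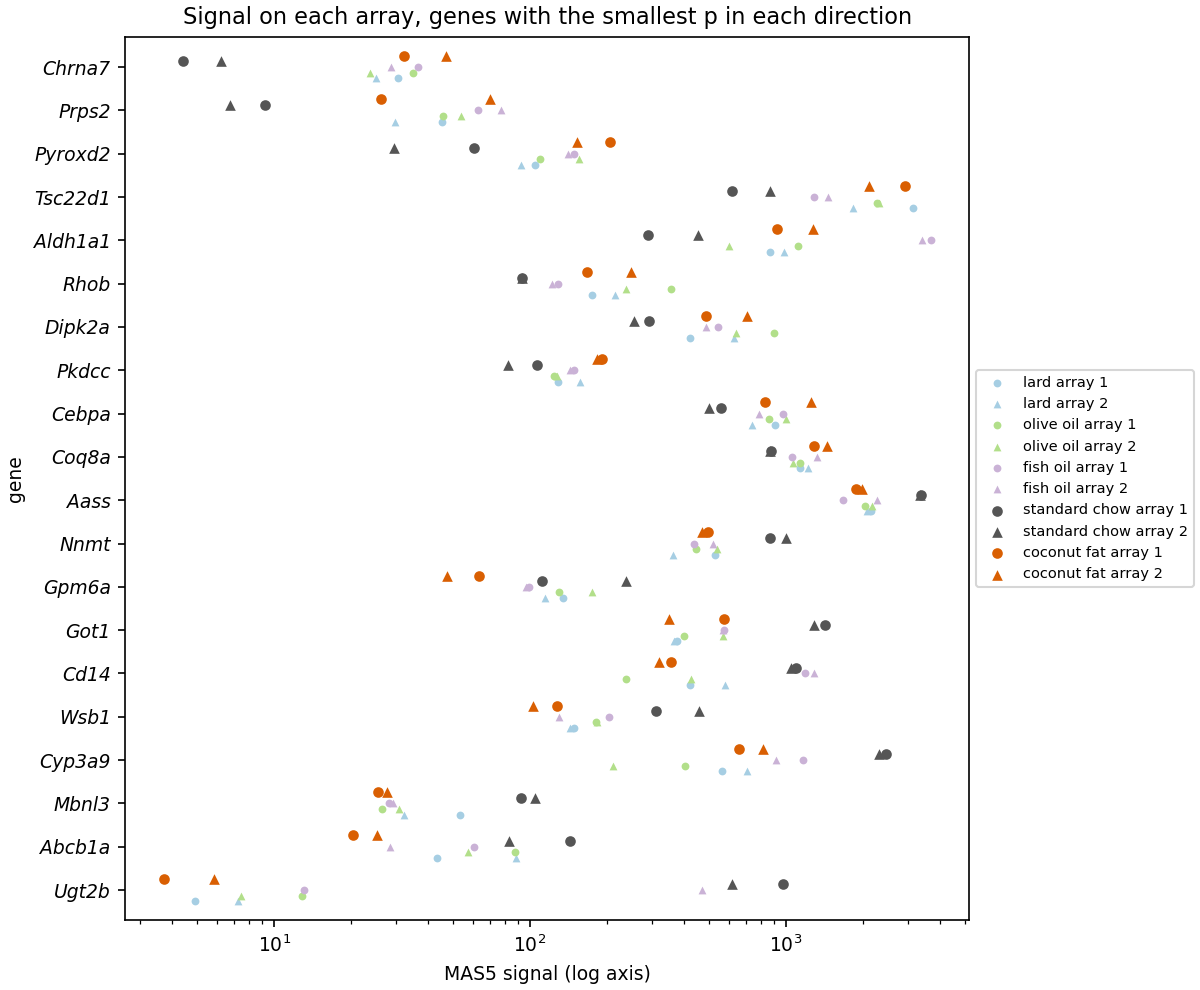
MAS5 signal on a log axis for each of the 10 arrays, for the 20 named genes with the smallest p, ordered by log2 fold change between coconut fat (orange) and standard chow (dark grey). Circles are array 1 and triangles array 2 of a diet. Lard, olive oil and fish oil are drawn in pale colours; the fish oil arrays of Ugt2b lie at 13.1 and 471.9, while in every other diet both Ugt2b points lie on the same side of that gap.

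The other high-fat diets were measured against the same 2 chow arrays, so their values share that side of the difference. For Got1 the log2 fold change from chow was -1.59 on coconut fat, -1.86 on lard, -1.51 on olive oil and -1.25 on fish oil. For Tsc22d1 it was 1.76 on coconut fat, 1.72 on lard, 1.65 on olive oil and 0.91 on fish oil. Cd14 was close to chow on fish oil (0.20) and differed by -1.66 on coconut fat, -1.11 on lard and -1.74 on olive oil. Aldh1a1 was farther from chow on fish oil (3.28) than on coconut fat (1.57). At the same threshold 3 probe sets were called for lard, 5 for olive oil and 29 for fish oil.

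Gene groups were described by 27 pathway lists, each gene by its brightest probe set, which gave 10383 genes. Of all 10383 genes, 4983 were above and 5400 below 0, with a median of -0.015. An unadjusted p under 0.05 was reached by 2.75% of genes on the higher side and 3.08% on the lower side. Both coconut fat arrays lay above both chow arrays in 17.4% of genes and below in 19.2%. No listed gene passed the adjusted threshold. The members of largest difference in each list are named, and further members with an unadjusted p under 0.05 were chosen after their values were seen.

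Genes of fatty acid synthesis stood higher on coconut fat than on chow array 1 but not than on chow array 2. Of 22 tested genes 20 were above 0, with a median log2 fold change of 0.70, and 5 had an unadjusted p under 0.05 on the higher side and 0 on the lower. Srebf1, the transcription factor of the pathway, had 206.3 and 847.6 on chow and 1836.1 and 1854.2 on coconut fat (log2 fold change 2.13, SE 0.57, adjusted p 0.702), and its other probe set gave 1.86. Here both coconut fat arrays exceeded both chow arrays. Mid1ip1, which helps acetyl-CoA carboxylase polymerise, had 283.8 and 447 against 561.3 and 604.3 (0.70). Mlxipl had 80.9 and 90.9 against 170.9 and 108.3 (0.65), and the mitochondrial citrate carrier Slc25a1 had 439.9 and 597.6 against 839.7 and 645.8 (0.52). Those 3, Srebf1 and the desaturase Fads2 (0.70) were the 5 genes below the unadjusted threshold. Fads2 overlapped between the groups, with 593.2 and 1229.9 against 1595.3 and 1217.3.

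The 2 chow arrays differed from each other in this pathway more than the diets did. Chow array 2 was above chow array 1 in 21 of 22 genes, by a median of 1.51 on the log2 scale. Fatty acid synthase (Fasn) had 105.8 and 1096.8 on chow and 1841.8 and 579.6 on coconut fat (log2 fold change 1.58, SE 1.16). Stearoyl-CoA desaturase (Scd), which makes monounsaturated fatty acids, had 547.5 and 5610.4 against 6487.2 and 4893.2 (1.68, SE 0.82). In both genes chow array 1 was far below the other 3 arrays. The lipase Pnpla3 had 11.2 and 49 against 398.7 and 24.4 (1.95, SE 1.02), a difference carried by coconut fat array 1. Over the list, the median was 0.0059 without chow array 1 and 1.36 without chow array 2, and 0.35 and 1.00 without coconut fat array 1 and array 2.

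Cholesterol synthesis ran the other way, and its median rested on the opposite chow array. Of 19 tested genes 16 were below 0, the median was -0.28, and 4 genes had an unadjusted p under 0.05, all on the lower side. Squalene epoxidase (Sqle) had 46.6 and 109.7 on chow and 34 and 18.2 on coconut fat (log2 fold change -1.41, SE 0.60, adjusted p 0.895). The sterol reductase Tm7sf2 had 886.4 and 1285.3 against 537.4 and 375.4 (-1.24, SE 0.42, adjusted p 0.796). Idi1 (-1.17) and Sc5d (-0.69) were the other 2, and in all 4 the coconut fat arrays lay below both chow arrays. Over the list both coconut fat arrays were below both chow arrays in 5 of the 19 and above in 0, beside 19.2% and 17.4% of all genes. Chow array 2 was above chow array 1 in 17 of 19 genes, by a median of 0.92, and both coconut fat arrays were below chow array 2 in 17. Without chow array 1 the median of the list was -0.78, and without chow array 2 it was 0.059, so its sign rests on chow array 2.

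**Figure D3:**
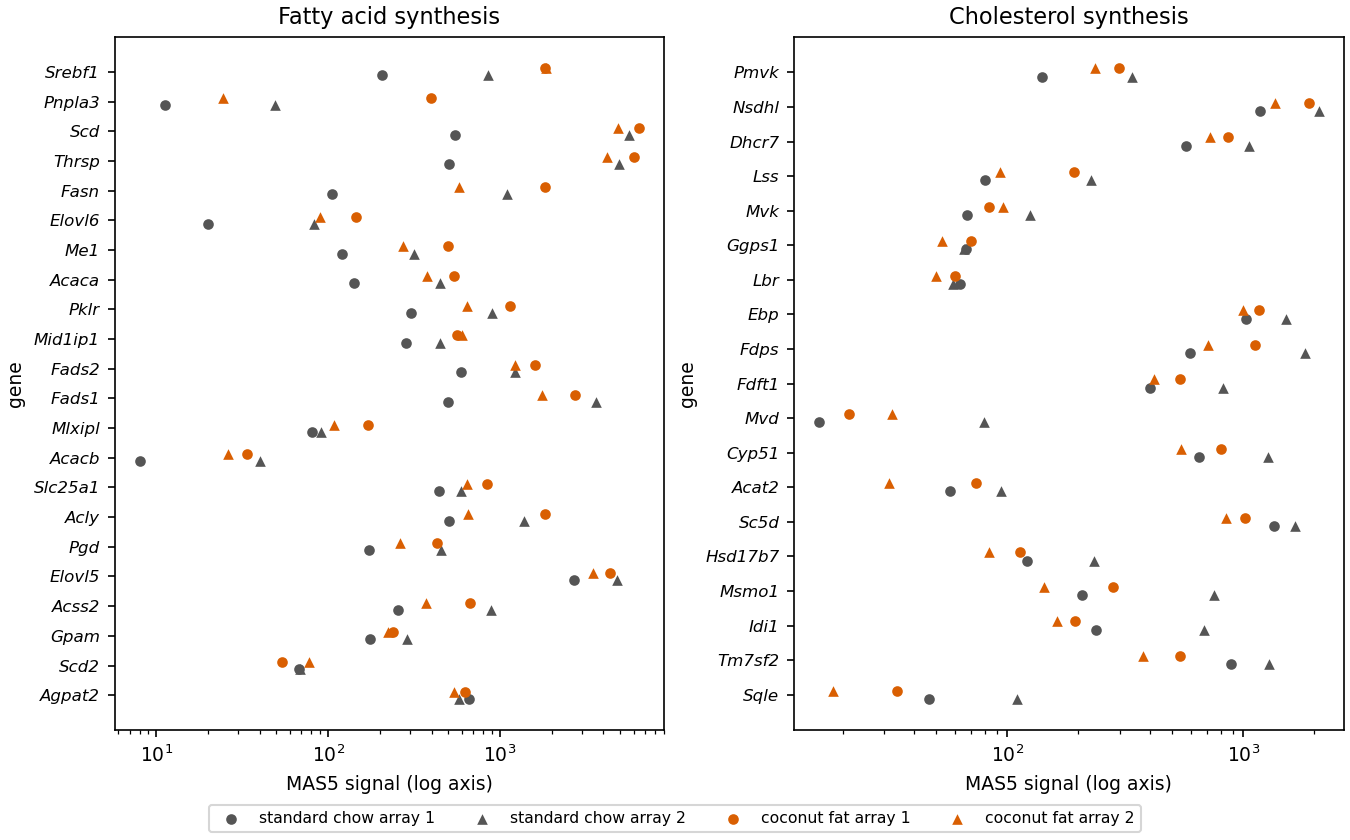
MAS5 signal on a log axis of each tested gene of fatty acid synthesis (left, 22 genes) and cholesterol synthesis (right, 19 genes) on the chow (grey) and coconut fat (orange) arrays, circles for array 1 and triangles for array 2, ordered by log2 fold change. On the left chow array 1 is below chow array 2 in 21 of 22 genes; on the right it is below in 17 of 19.

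In the list of cholesterol uptake, sensing and export 10 of 14 tested genes were below 0, with a median of -0.066. The sterol exporter subunits Abcg5 (320.5 and 20.3 against 13.6 and 32, log2 fold change -1.85, SE 0.99) and Abcg8 (61.9 and 14.7 against 18.4 and 21.1, -0.58, SE 0.66) were high on chow array 1 only. Insig2, which retains SREBP in the endoplasmic reticulum, was the 1 member below the unadjusted threshold, with 4772.7 and 3874.9 against 3300.1 and 3333 (-0.37, SE 0.14).

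Mitochondrial fatty acid oxidation differed little in size. Of 19 tested genes 17 were above 0, but the median was 0.11 and the largest log2 fold change 0.35. Both coconut fat arrays were above both chow arrays in 8 of the 19 and below in 0, beside 17.4% and 19.2% of all genes. Short-chain acyl-CoA dehydrogenase (Acads) had 411.9 and 409.9 on chow and 533.8 and 511.7 on coconut fat (0.34, SE 0.14, adjusted p 0.880). The dienoyl-CoA reductase Decr1 had 3236.8 and 1896.3 against 3075.6 and 3238.6 (0.35, SE 0.22), where only chow array 2 was low.

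Genes for handling medium chains were near chow as a group, with 8 of 12 above 0 and a median of 0.048. The medium-chain acyl-CoA dehydrogenase Acadm had 4061.4 and 4214.9 on chow and 4136.8 and 4451.4 on coconut fat (0.053, SE 0.12). The 95% interval of the Acadm difference ran from -0.22 to 0.33. The acyl-CoA synthetase Acsm3 was lower, with 211.7 and 356.5 against 134.7 and 50.9 (-1.69, SE 0.53, adjusted p 0.785). Its relative Acsm2 had 31.9 and 108.2 against 79.5 and 138 (0.79, SE 0.71), with overlapping groups. Acads, named above, is also in this list.

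Peroxisomal fatty acid oxidation, which shortens very long and branched chains, had 7 genes above and 8 below 0 with a median of -0.017. Acox2, an oxidase for bile acid precursors, had 917.1 and 2381.1 on chow and 3908.9 and 2552.6 on coconut fat (1.09, SE 0.38, adjusted p 0.806). The thioesterase Acot3 had 117.1 and 66.1 against 50.8 and 36.7 (-0.98, SE 0.44). Ehhadh, the bifunctional enzyme, had 2511.7 and 2259 against 3318.5 and 2767 (0.35, SE 0.16). These 3 were the members with an unadjusted p under 0.05.

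Of 22 further genes known as targets of PPAR alpha, the fatty acid receptor of the liver, 14 were above 0, with a median of 0.18. The gene of the receptor itself, Ppara, had 41.6 and 3.2 on chow and 56.6 and 54.7 on coconut fat (1.81, SE 0.79, adjusted p 0.896). Fabp2, an intestinal type fatty acid binding protein, had 1.4 and 40.5 against 102.7 and 43.7 (2.33, SE 0.84, adjusted p 0.824). In both genes 1 chow array was at background and the other close to the lower coconut fat array. Acot1, an acyl-CoA thioesterase, was at background on both chow arrays (8.8 and 1.5) and had 21.7 and 22 on coconut fat, at least 1.71-fold higher. The lipid droplet coat gene Plin2 (2112.6 and 2452.5 against 2416.8 and 2195.5, 0.017) and the transporter Cd36 (119.7 and 204.8 against 259.1 and 118.3, 0.16) overlapped between the diets.

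Ketogenesis had 5 of 6 tested genes above 0 and a median of 0.32. Bdh1, which interconverts the ketone bodies, had 1047.8 and 939.1 on chow and 1600.4 and 1321.5 on coconut fat (0.55, SE 0.21, adjusted p 0.856). Oxct1, the ketone-using enzyme that hepatocytes largely lack, was dim, with 17.2 and 3.4 against 22.4 and 35.1 (1.44, SE 0.58). The monocarboxylate carrier Slc16a7 was the member below 0, with 888.4 and 653.2 against 521.7 and 572.4 (-0.48, SE 0.18). The median of the list lay between 0.21 and 0.37 in all 19 alternative settings and left-out arrays.

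Amino acid breakdown leaned to the lower side on coconut fat. Of 31 tested genes 17 were below 0, with a median of -0.18. On the lower side 8 had an unadjusted p under 0.05 and on the higher side 1, beside 3.08% and 2.75% of all genes. Both coconut fat arrays were below both chow arrays in 13 of the 31 and above in 5, beside 19.2% and 17.4% of all genes. Serine dehydratase (Sds), which turns serine into pyruvate, had 693.9 and 875.7 on chow and 296.5 and 139.8 on coconut fat, 3.78-fold lower (log2 fold change -1.92, SE 0.47, adjusted p 0.592). Got1 and Aass, given above, were in this list too. Alanine aminotransferase (Gpt) had 2003.5 and 1957.9 against 1326.1 and 1326.5 (-0.58, SE 0.19), with replicate arrays almost equal. Liver glutaminase (Gls2, -0.56), tyrosine aminotransferase (Tat, -0.48), Gnmt (-0.40) and ornithine aminotransferase (Oat, -1.12) completed the 8. The 1 on the higher side was Bckdha (0.56), a subunit of the enzyme that commits branched-chain amino acids to breakdown. The list's median was -0.28 without chow array 1, -0.050 without chow array 2, -0.25 without coconut fat array 1 and -0.039 without coconut fat array 2. Against the same chow arrays its median was -0.31 on lard, -0.38 on olive oil and -0.28 on fish oil.

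Nitrogen disposal and glucose production were mixed. In the urea cycle 6 of 8 genes were below 0 with a median of -0.093. Argininosuccinate lyase (Asl) had 1884 and 1249.6 on chow and 740.7 and 800.1 on coconut fat (-0.99, SE 0.28, adjusted p 0.725), and the ornithine carrier Slc25a15 had 1538 and 1683.3 against 1310.4 and 1169.3 (-0.38, SE 0.15). Of 15 genes of gluconeogenesis and glycogen 8 were below 0, with a median of -0.094, and 3 had an unadjusted p under 0.05 on each side. On the lower side these were Got1, glycogen synthase (Gys2), with 404.9 and 410.2 against 259.7 and 296.8 (-0.55, SE 0.16, adjusted p 0.725), and Ppargc1a. On the higher side Ppp1r3b, which targets protein phosphatase 1 to glycogen in liver, had 631 and 810.1 against 1523.1 and 2117.1 (1.32, SE 0.31, adjusted p 0.592), and its other probe set gave 1.48. Pyruvate carboxylase (Pc) had 592 and 817 against 949.3 and 974.8 (0.47, SE 0.17), and the transcription factor gene Foxo1 had 42.2 and 64.3 against 77.6 and 82.3 (0.59, SE 0.26). Glycogen genes thus lay on both sides of 0. The coactivator Ppargc1a was dim, with 19.2 and 34.3 against 17.5 and 2.5 (-1.43, SE 0.63). Of 16 genes of insulin and IGF signalling 8 lay on each side of 0 (median 0.0033). Igfbp2, an IGF binding protein, had 92.3 and 86.5 against 41.4 and 45.9 (-0.99, SE 0.30, adjusted p 0.785). Igfbp1, which fasting is known to raise, had 1359.3 and 146 on chow against 306.8 and 279.8 on coconut fat (-0.61, SE 0.77), so its 2 chow arrays lay on either side of the coconut fat arrays.

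**Figure D4:**
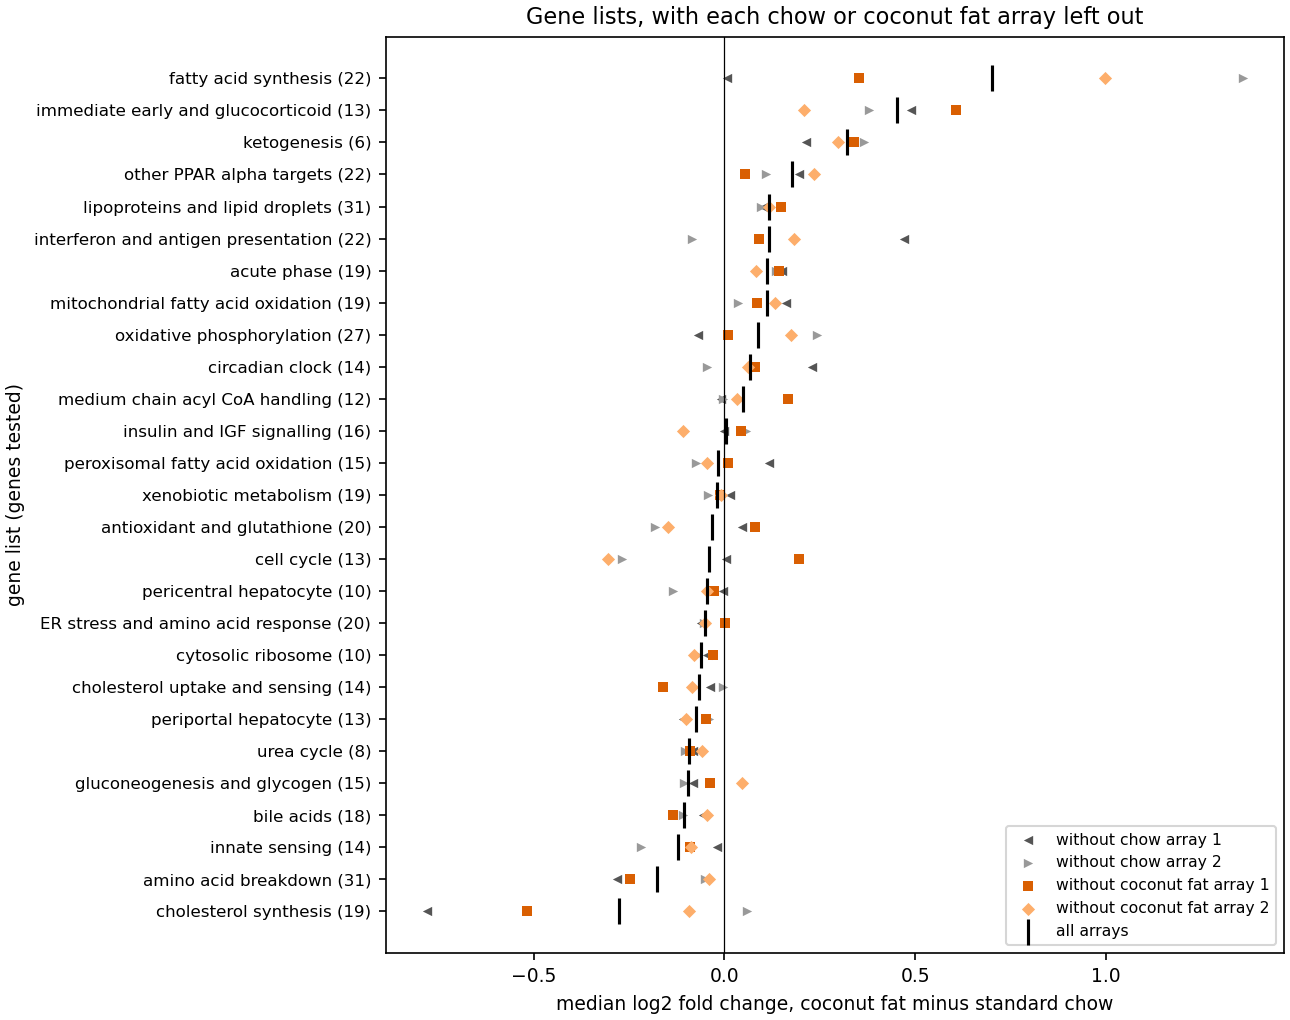
Median log2 fold change (coconut fat minus chow) of each of the 27 pathway lists, with the number of genes tested in brackets; the black bar is the value from all arrays and the other marks leave out 1 chow or coconut fat array. The fatty acid synthesis median runs from 0.0059 to 1.36 and that of cholesterol synthesis from -0.78 to 0.059, depending on which chow array is kept.

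Bile acid genes had 11 of 18 below 0 and a median of -0.11. The phospholipid exporter Abcb4 had 737.9 and 429.8 on chow and 348.9 and 372 on coconut fat (-0.64, SE 0.29), and the bile salt export pump Abcb11 had 2219.9 and 1869 against 1246.6 and 1573.4 (-0.54, SE 0.16, adjusted p 0.745). Nr0b2, the repressor known as SHP, had 659.7 and 122.7 against 651 and 723.9 (1.26, SE 0.56, adjusted p 0.911). Only chow array 2 was low for Nr0b2, and the gene was among the 3 called when chow array 1 was left out. The list of xenobiotic metabolism had 8 genes above and 11 below 0, with a median of -0.018. It held Cyp3a9 on the lower side and, on the upper, Cyp2c12, a cytochrome P450 that is mainly female in rats, with 356.5 and 673.9 against 1357.5 and 2115.3 (1.78, SE 1.04, adjusted p 0.963). Cyp2c12 varied widely within other diets as well, from 128.7 to 2292.6 on the olive oil arrays. Antioxidant and glutathione genes had 9 above and 11 below 0, with a median of -0.032. The largest among them were the glutathione transferase Gstp1 (232.3 and 304.4 against 178.2 and 249.4, -0.33, SE 0.23) and the metallothionein Mt2A (804.6 and 711.9 against 574.2 and 644, -0.31, SE 0.37).

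In the acute phase list, which covers plasma proteins of inflammation and their receptors, 16 of 19 genes were above 0, but the median was only 0.11. Both coconut fat arrays exceeded both chow arrays in 10 and were below them in 1, beside 17.4% and 19.2% of all genes. The interleukin 6 receptor gene Il6r had 194.9 and 182.8 on chow and 385 and 346.1 on coconut fat (0.94, SE 0.27, adjusted p 0.725). Lcn2, an iron-binding acute phase protein, had 33.7 and 28 against 72.2 and 32.8 (0.62, SE 0.59). The innate sensing list had 9 of 14 genes below 0 and a median of -0.12. Besides Cd14 it held the adhesion molecule Icam1, with 110.8 and 136.8 against 148 and 292.5 (0.74, SE 0.31).

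Interferon and antigen presentation genes had 13 of 22 above 0 and a median of 0.12, which was 0.47 without chow array 1 and -0.085 without chow array 2. The peptide transporter Tap1 had 68.4 and 35.7 on chow and 113.1 and 112.6 on coconut fat (1.14, SE 0.36, adjusted p 0.785). The class II gene RT1-Da had 666.1 and 1015 against 452.9 and 441.3 (-0.87, SE 0.22, adjusted p 0.592), and the invariant chain Cd74 had 929.6 and 1274.7 against 824.5 and 625.5 (-0.60, SE 0.19). For the class II gene RT1-Bb the probe sets disagreed. The brighter had 258.2 and 355.3 against 64.5 and 92.6 (-1.93, SE 0.93) and the dimmer had 16.2 and 3.6 against 168.4 and 114.5 (3.64, SE 1.05). No direction is given for RT1-Bb.

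Lipoprotein and lipid droplet genes had 21 of 31 above 0, with a median of 0.12. An unadjusted p under 0.05 was reached by 5 on the higher side and 0 on the lower, beside 2.75% and 3.08% of all genes. Cideb, which loads lipid onto very low density lipoprotein, had 472.1 and 699.1 on chow and 990.9 and 775.2 on coconut fat (0.61, SE 0.20, adjusted p 0.796). Cidec, a lipid droplet fusion protein, had 433.8 and 329.9 against 609.9 and 488.7 (0.53, SE 0.21). Hepatic lipase (Lipc, 0.46), Dgat2 (0.43), which completes triglyceride synthesis, and lysosomal lipase (Lipa, 0.30) were the other three. In these 5 genes, picked for a small p, both coconut fat arrays lay above both chow arrays. Over the list both coconut fat arrays were above both chow arrays in 14 of the 31 and below in 4, beside 17.4% and 19.2% of all genes.

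Immediate early and glucocorticoid genes had 10 of 13 above 0 and a median of 0.45, which ran from 0.21 to 0.61 over the 19 alternatives. The lowest value was that without coconut fat array 2 and the highest that without coconut fat array 1. Their summed signal was 2634.3 and 2444.1 on chow and 2841.8 and 3956.4 on coconut fat. Coconut fat array 1 was above array 2 in only 3 of the 13 genes, so much of the median rests on array 2. The members of largest difference were Myc, with 64.3 and 36.2 on chow and 66.5 and 113.8 on coconut fat (0.81, SE 0.47), and Klf4, with 21.7 and 21.7 against 29 and 37.4 (0.54, SE 0.49). The glucocorticoid receptor gene Nr3c1 was the 1 member below the unadjusted threshold, with 362.5 and 437 against 497.3 and 641.5 (0.50, SE 0.17). Subunits of oxidative phosphorylation had 22 of 27 above 0, with a median of 0.088 that was -0.070 without chow array 1 and 0.24 without chow array 2. Cox5a had 112.2 and 125 against 83.6 and 70.8 (-0.60) and Ndufs3 had 898.5 and 1012.8 against 1222.8 and 1058.4 (0.25).

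Genes of endoplasmic reticulum stress and the amino acid response had 13 of 20 below 0 and a median of -0.050. The chaperone gene Dnajb9 had 507.5 and 548 on chow and 329.4 and 363.6 on coconut fat (-0.60, SE 0.17, adjusted p 0.725), while Herpud1 had 921.5 and 604.4 against 845.1 and 1218.4 (0.44). Clock genes had 8 of 14 above 0 (median 0.066), with Bhlhe40 at 0.76 and Dbp at -0.75, SE 0.44 and 0.80. Cell cycle genes had 6 of 13 above 0 (median -0.040). The kinase Cdk1 was at or near background, with 1.3 and 15.8 against 25.1 and 22.7, and the cell cycle inhibitor Cdkn1a had 108.2 and 64.2 against 96.6 and 169.7 (0.60, SE 0.35). The other probe set of Cdkn1a had 66.1 and 106.9 against 160.3 and 177.3 (0.98, SE 0.33, adjusted p 0.796), with no overlap. Cytosolic ribosomal proteins had 3 of 10 above 0, a median of -0.062 and no member beyond Rps3 at -0.15, with Rpl4 next at -0.097.

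Hepatocytes near the portal vein and near the central vein differ in the genes they use. Of 13 periportal genes 9 were below 0 (median -0.075), with Sds and Gls2 the largest. Of 10 pericentral genes 6 were below 0 (median -0.045), with Oat (2481.3 and 1756.7 against 1370.9 and 674) and Cyp1a2 (1975.4 and 2118.1 against 1375.1 and 1181.4, -0.68, SE 0.26) the largest. Over the 19 alternatives the periportal median ran from -0.16 to -0.040 and the pericentral one from -0.14 to -0.0032.

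Markers of other cells that a piece of liver can hold were also measured. Stellate cell and fibroblast markers had 8 of 11 above 0 (median 0.061), and their largest differences ran in opposite directions. The matrix proteoglycan gene Dcn had 115.1 and 148.1 on chow and 66.1 and 56.8 on coconut fat (-1.05, SE 0.27, adjusted p 0.658), and the pericyte gene Rgs5 had 39.4 and 13.8 against 60.4 and 41.4 (0.99, SE 0.42). All 3 tested of 8 cholangiocyte markers were below 0 (median -0.76): their summed signal was 185.3 and 290.7 on chow and 98.3 and 196.8 on coconut fat, and the adhesion molecule Epcam had 108 and 159.9 against 65.6 and 88.8 (-0.76, SE 0.32). The secreted phosphoprotein Spp1 had 38.1 and 73.2 against 11 and 66.8 (-0.84, SE 1.07).

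Endothelial markers had 4 of 7 below 0 (median -0.17), led by Tek (-0.39) and Eng (-0.28), with sums of 2052.5 to 2269.8 on chow and 2022.8 to 2156.2 on coconut fat. Lymphocyte markers had 5 of 7 below 0 (median -0.059), with sums of 288.7 to 321.5 and 278.7 to 291.7, Ms4a1 at -0.66 and Nkg7 at 0.48. Of the neutrophil markers only S100a9 was bright enough to be tested (57.1 and 45.8 against 58.3 and 33.1). Red cell markers summed to 6140.5 and 7499.0 on chow and 8242.1 and 8768.6 on coconut fat (3 tested, median 0.32), with the globin Hbb at 0.32 and the haem enzyme Alas2 at 0.54. The adipocyte list was represented by Cfd alone (70.8 and 113.5 against 132.6 and 156.7, 0.67), since Adipoq, Lep, Plin1 and Fabp4 were too dim to be tested. Pancreatic markers were represented by Prss1 (22 and 30.6 against 19.7 and 19.2, -0.37) and Cela1 (155 and 38.4 against 66 and 145.3, 0.32). The part of these cells in the gene values above was not tested.

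Setting coconut fat against lard and olive oil averaged together holds the fat share of energy equal and so bears on the type of fat. Again 0 of 18625 probe sets were called (0%), and the smallest adjusted p was 0.234. An unadjusted p under 0.05 was reached by 1249 probe sets (6.71%), of which 454 were higher and 795 lower on coconut fat. That split depends on the scaling of the arrays: 36.3% of them were higher as deposited, 47.6% after quantile normalization and 58.7% when the 75th percentiles were aligned. The median log2 fold change of all probe sets moved only from -0.034 to 0.013 and 0.035 under these scalings.

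Gpt and Sds stood above the lard and olive oil arrays although they were below chow, which did not hold for Got1 (0.092 against lard and olive oil), Aass (-0.13) or Oat (-0.27). Gpt, with 1326.1 and 1326.5 on coconut fat, had 812.9 and 847.3 on lard and 346.3 and 459.4 on olive oil. Its log2 fold change against their mean was 1.20 (95% interval 0.85 to 1.55, adjusted p 0.234), and that against chow -0.58. Sds had 296.5 and 139.8 on coconut fat, 80.7 and 40.9 on lard and 20.9 and 55.5 on olive oil (2.12, 95% interval 1.23 to 3.01, adjusted p 0.349). In both genes the coconut fat arrays lay between the chow arrays and those of lard and olive oil. On fish oil Sds had 129.6 and 199.7, which overlapped coconut fat, and Gpt had 990 and 689.6, below it. The amino acid breakdown list had a median of 0.24 in this comparison, beside -0.013 for all genes.

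D-amino acid oxidase (Dao), a peroxisomal enzyme, had 726.1 and 791.8 on coconut fat, 438.1 and 299.1 on lard, 406 and 359.2 on olive oil and 500.3 and 461.6 on chow (1.02 against lard and olive oil, 95% interval 0.67 to 1.37, adjusted p 0.267). Enpp2, which makes lysophosphatidic acid, had 1495.5 and 1884.5 against 1329.9 and 1046.4 on lard and 826.1 and 691 on olive oil (0.83, 95% interval 0.50 to 1.16, adjusted p 0.320). Acox2 had 3908.9 and 2552.6 on coconut fat, 1029.5 and 650.6 on lard and 1120.5 and 964.8 on olive oil (1.77, 95% interval 1.04 to 2.50, adjusted p 0.320). For Dao, Enpp2 and Acox2 both coconut fat arrays lay above all 4 lard and olive oil arrays, and the genes were picked on those values. Fish oil, with the same fat share of energy, had 1631.9 and 1405.7 for Enpp2, which overlapped coconut fat. It had 520.8 and 569.1 for Dao and 1213.8 and 902.4 for Acox2, below both coconut fat arrays.

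On the lower side Asphd1, a hydroxylase-like membrane protein, had 23.4 and 21.7 on coconut fat against 65.4 and 76.1 on lard and 88.1 and 75 on olive oil (-1.62, 95% interval -2.14 to -1.10, adjusted p 0.258). Akr1c13, an aldo-keto reductase, had 1321.9 and 1437 against 2713.5 and 2564.9 on lard and 1738.8 and 1656.5 on olive oil (-0.62, 95% interval -0.85 to -0.38, adjusted p 0.306). Thoc2, of the complex that exports mRNA, had 70.7 and 57.6 against 117.6 and 108.3 on lard and 160.3 and 133.8 on olive oil (-0.98, 95% interval -1.38 to -0.58), but its other 3 probe sets gave -0.028, -0.53 and -0.28. On fish oil Asphd1 had 33.8 and 32.2, nearer to coconut fat than to lard or olive oil. Akr1c13 had 1735.9 and 1670.9 there and Thoc2 107.2 and 105.4, above both coconut fat arrays. Of the 20 genes that led the comparison with chow, Abcb1a (-1.43, 95% interval -2.27 to -0.59), Gpm6a (-1.28, -1.89 to -0.67) and Wsb1 (-0.50, -0.97 to -0.026) had intervals below 0 here. Cyp3a9 (0.76, 95% interval 0.26 to 1.26), Pyroxd2 (0.63, 0.036 to 1.23) and Pkdcc (0.47, 0.10 to 0.85) had intervals above 0. The others had intervals that include 0, among them Got1 (0.092, 95% interval -0.34 to 0.52), Tsc22d1 (0.081, -0.40 to 0.56) and Cd14 (-0.23, -0.70 to 0.23). These single-gene intervals are not adjusted for the number of probe sets, and Sds, Acox2 and the genes carried over from chow were picked after their values were seen or for their rank against chow.

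Against lard and olive oil the cholesterol synthesis list had a median of -0.45 and the fatty acid synthesis list one of -0.21. For mitochondrial fatty acid oxidation it was 0.097, for medium-chain handling 0.17, for xenobiotic metabolism 0.32 and for ketogenesis 0.044. The chow arrays take no part in these medians, and the coconut fat arrays are those used above. For fatty acid synthesis lard and olive oil were not alike. Against chow the median of that list was 0.63 on lard, 1.42 on olive oil and 0.70 on coconut fat.

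**Figure D5:**
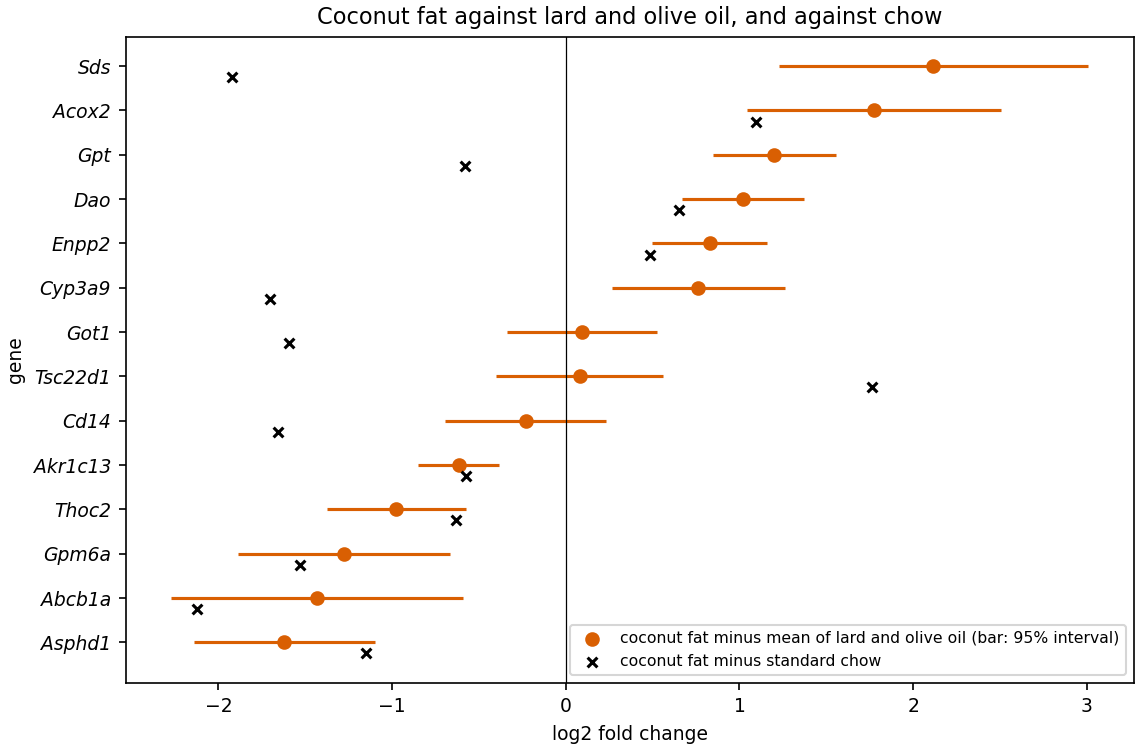
Log2 fold change of coconut fat against the mean of lard and olive oil (orange points, bars are 95% intervals from the limma fit of all 10 arrays, 2 arrays per diet) and against standard chow (crosses) for 14 genes. Sds and Gpt lie above 0 against lard and olive oil and below 0 against chow, Asphd1 lies below 0 in both, and the bars of Got1, Tsc22d1 and Cd14 cross 0.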

How the data were processed

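Total RNA of 10 rat liver samples was hybridised to 1 array each, per the labels, 2 arrays for each of 5 diets. The deposited values are linear signal intensity that the authors computed with MAS5, per the submitters' processing notes, with no version given in the sources used here. The 2% trimmed mean was 100 on every array, so no scaling was added, and the number of arrays limits the precision.

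Of 31099 probe sets 57 controls were removed. Values became log2(signal + 3.1), 3.1 being the 10th percentile over the whole table, and the 40% of probe sets with the lowest mean over all arrays (12417) were left out. In the platform annotation 20826 probe sets had 1 gene symbol, 436 several and 9780 none. Of these, 20758 gene identifiers were found in the RefSeq table, which changed 0 symbols. All 10 arrays entered 1 linear model, with a mean for each diet, in limma 3.58.1 under R 4.3.3 (empirical Bayes with an intensity trend), after a check on simulated data. Within a comparison the Benjamini-Hochberg adjusted p was called below 0.05. The offset makes fold changes of dim genes smaller than those of the signals.

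Named genes were, among probe sets with 1 regular symbol and the smallest p per gene, all that passed or, failing that, the 10 with the smallest p in each direction against chow, the 3 in each direction against lard and olive oil, and the 2 members of each list with the largest absolute fold change. The 27 pathway and 10 marker lists held 623 names, of which 542 had a probe set and 493 were tested. The members and lists were chosen with earlier results of these data known, so no set test was made. Alternatives covered scaling, offset, the dim filter, the variance model, the arrays in the fit, the threshold, the replicate number as a block, the probe set that stands for a gene and each array left out.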

Additional observations from a re-analysis of the deposited data

How the results depend on the processing

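Against chow 0 probe sets were called under quantile normalization, aligned 75th percentiles, another offset or a floor, either change of the dim filter, either other variance model and a threshold of 0.10, where the smallest adjusted p was 0.103 to 0.61. A fit of only the diets compared called 5 (1 higher, 4 lower, Cd14, Cyp3a9 and Ugt2b among them) and, against lard and olive oil, 1 (Zfp354a). Leaving out 1 array in turn gave 0 to 3 calls against chow and 0 to 1 against lard and olive oil (Gstm2 without olive oil array 1). Against chow these were Cd14 and Cyp3a9 without olive oil array 1 or 2, both Ugt2b probe sets without fish oil array 1 or 2, Slpi without coconut fat array 2, and Cfp, Nr0b2 and Pyroxd2 without chow array 1. A diet left with 1 array is assumed to vary like the others. Over these alternatives the adjusted p of Cd14 ran from 0.0256 to 0.61 and that of Ugt2b from 0.000154 to 0.64. With no dim filter 1615 and 1948 probe sets had an unadjusted p under 0.05 in the 2 comparisons, as more were tested. Of the 1012 against chow with the filter 46.7% were higher, but the share was 64.9% without chow array 1, 58.2% without chow array 2, and 37% and 35.7% without coconut fat array 1 and 2.

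The replicate number as a block left 0 calls in both comparisons and 1015 and 1253 probe sets at an unadjusted p under 0.05. Same-numbered arrays of coconut fat and chow did not deviate together (correlation -0.033, and -0.033 to 0.076 over all 10 pairs of diets). No pairing by number was seen in these values, but correlations near 0 cannot show whether the samples were paired.

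The median of 15 of 27 pathway lists and 5 of 10 marker lists kept its sign in every alternative run. Of the 20 leading genes 0 changed sign. They were picked for a small p on these same arrays and did not overlap between the groups. Leaving an array out therefore could not turn their sign. Single arrays turned the log2 fold change of 11 other named genes. Without 1 coconut fat array in turn it ran from -0.78 to 0.0028 for Tek, -1.99 to 0.32 for Spp1 and -0.58 to 0.18 for S100a9. Without 1 chow array in turn it ran from -3.74 to 0.049 for Abcg5, -1.51 to 0.36 for Abcg8, -0.044 to 1.62 for Acsm2, -2.20 to 0.99 for Igfbp1, -0.036 to 0.73 for Decr1, -1.74 to 0.42 for Ms4a1, -0.24 to 1.19 for Nkg7 and -0.64 to 1.29 for Cela1. Ms4a1 (0.19) and Cela1 (-0.23) also turned without coconut fat array 1 and array 2. The cause was not tested.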

Other observations

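Slpi, a secreted protease inhibitor in none of the lists, was singled out after its values were seen. It was at background on both chow arrays (6.5 and 2.6) and had 168.3 and 21.3 on coconut fat, with a wide gap between the 2 coconut fat arrays (adjusted p 0.584). On lard Slpi had 262.5 and 174.1, and on olive oil 151.7 and 289.3.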
